A study of Mus musculus with 2 samples.

Results

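The reactive glia genes were 8 genes that are widely used as signs of reactive or injured glia: Gfap, Vim, Nes, Serpina3n, Cd44, Lgals3, Lcn2 and S100b. They were chosen by symbol, and all 8 were among the 31053 genes counted. Values came from cells that had 200 or more genes and no more than 10% mitochondrial RNA, measured in unique molecular identifiers (UMIs, each counting a captured transcript once). The data were single cells of dorsal root ganglia (DRGs) of 2-week-old Swiss mice, male and female per the methods, kept for 3 days in culture on laminin and detached with trypsin. The 2 libraries, A and B, were replicates of this 1 condition and no untreated or acutely isolated sample was analysed here, so no value below is a response to injury or to culture. Library A held 40355401 UMIs in 5175 barcodes and library B held 38945848 UMIs in 5773, and 10730 of 10948 cells were kept.

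Glia of a ganglion are satellite glial cells (SGCs), which wrap the cell bodies of sensory neurons, and Schwann cells, which wrap axons. After injury, glia enlarge their cytoskeleton, secrete acute-phase and matrix-binding proteins and can re-enter the cell cycle, and Schwann cells take on a repair state. Gfap, Vim and Nes encode intermediate filament proteins (glial fibrillary acidic protein, vimentin and nestin). Serpina3n encodes a secreted protease inhibitor, Lcn2 a secreted iron-siderophore carrier (lipocalin 2) and Lgals3 a sugar-binding protein (galectin-3). Cd44 is a receptor for hyaluronan, and S100b a calcium-binding protein used as a glial marker.

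Cells fell into 4 classes named from marker genes, with the members held out of the genes used for clustering: 9447 glia, 811 neurons, 389 fibroblasts and 83 macrophages. Glia were then clustered again without the members and the listed glial genes, which gave 5 clusters. Cluster 0 (3477 cells) had the highest level of SGC genes among non-dividing clusters, led by Apoe and Fabp7, and is called SGC-high. Cluster 2 (1940 cells) had the highest level of repair Schwann cell genes, such as Ngfr and Btc, and is called repair-high. Clusters 1, 3 and 4 (1962, 1143 and 925 cells) were led by cell cycle genes, and among them cluster 1 had the lowest and cluster 4 the highest mean of the repair genes. Levels are summed UMI counts of a group of cells in a library, scaled to a common total (CPM), and ± gives the SD between libraries (n = 2). The labels do not say whether the libraries came from separate cultures or animals, so p-values measure the spread between these libraries, which may be technical. A level is a share of all RNA of its group, so more of a gene and less of all others cannot be told apart.

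The members were not a set of genes particular to glia. By class, Vim, Nes and Gfap had their highest levels in glia. Serpina3n and Cd44 had theirs in neurons, Lgals3 in macrophages and Lcn2 in fibroblasts, while S100b was about level in glia and neurons. In CPM, vimentin RNA stood far above the rest in glia (8028 ± 104), followed by Nes (296 ± 4.0), Lgals3 (174 ± 7.4), Cd44 (119 ± 1.9), S100b (91.9 ± 1.4), Serpina3n (78.1 ± 0.45) and Gfap (16.4 ± 0.68). Lcn2 was close to 0. Since the kit counts transcript 3′ ends, these counts need no correction for length. Capture can still differ between genes.

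**Figure D1:**
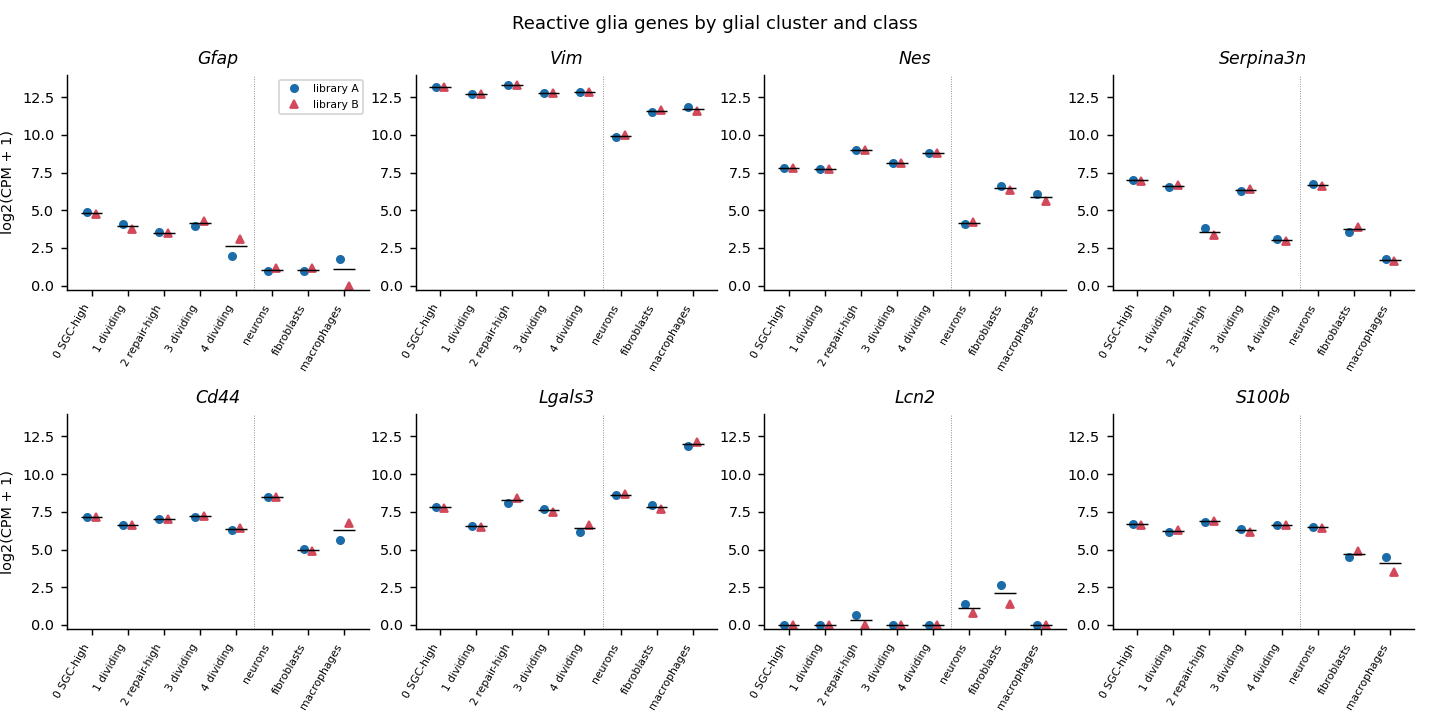
Level of each member as log2(CPM + 1) in the 5 glial clusters and 3 other classes, with library A as circles, library B as triangles and the mean of both as a bar. Serpina3n dropped in clusters 2 and 4, Lgals3 peaked in macrophages, and Lcn2 lay near 0 in every glial cluster.

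Lcn2 was the exception among the secreted members. Its gene lies at chr2:32384633-32388252 on the minus strand (GRCm38, the build called mm10). Among 9447 glial cells, 2 Lcn2 UMIs were counted in library A, both in 1 cell of the repair-high cluster, and 0 in library B. After thinning each cell to 2000 UMIs, 0 of 9266 glial cells held one, which allows a share of up to 0.0324% of cells with a UMI. Fibroblasts held 11 UMIs in A and 4 in B (3.4 ± 2.5 CPM), neurons 19 and 7 (1.2 ± 0.61 CPM), and macrophages none. Lcn2 did not pass the filter on low counts and was not tested, so 7 of the 8 members enter the counts of calls below.

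Serpina3n separated the glial clusters most. It lies at chr12:104406729-104414329 on the plus strand. Its level was 126 CPM in library A and 124 in B in the SGC-high cluster, against 12.9 and 9.1 in the repair-high cluster. Both libraries showed the same gap, with no overlap, and the SGC-high cluster was higher by 3.49 on the log2 scale (SE 0.11, 95% interval 3.26 to 3.71, edgeR quasi-likelihood test, adjusted p = 4.5e-70). The dividing clusters fell on either side of this gap. Cluster 1 had 90.5 and 102 CPM and cluster 3 had 76.8 and 85.0, while cluster 4 had 7.6 and 6.6. Between the 2 dividing clusters with the lowest and the highest repair genes, a comparison chosen after the levels were seen, Serpina3n was higher in cluster 1 by 3.69 (SE 0.14, adjusted p = 5.1e-60).

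Gfap, the classical filament of reactive astrocytes, went the same way at far lower levels. Its gene lies at chr11:102887336-102900912 on the minus strand. It had 28.2 and 25.5 CPM in the SGC-high cluster, 15.7 and 12.8 in cluster 1, 10.7 and 10.1 in the repair-high cluster, 14.8 and 18.4 in cluster 3, and 2.9 and 7.4 in cluster 4. The SGC-high cluster was higher than the repair-high cluster by 1.33 (SE 0.17, adjusted p = 2.3e-12) and cluster 1 higher than cluster 4 by 1.35 (SE 0.24, adjusted p = 6.2e-07). In cluster 4 Gfap rested on 9 UMIs in A and 27 in B, and the difference from cluster 1 was 2.12 in library A and 0.70 in library B taken alone. In the SGC-high cluster Gfap RNA was also concentrated in few cells: the 5% of cells with the most Gfap UMIs held 60.3% of them in A and 70.4% in B, against 33.0% and 32.9% for Serpina3n. A gene with few UMIs is concentrated by counting alone, so these shares are not compared further.

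Serpina3n and Gfap were the 2 members higher in the SGC-high cluster. The 250 bases before their RefSeq start sites (GRCm38.p6, in the direction of transcription) are shown for that reason. Their levels did not follow each other throughout: Serpina3n was far lower in the repair-high cluster than in cluster 1, and Gfap only slightly lower. In dividing against other glia, with equal weight per cluster, Gfap was lower and Serpina3n did not pass. Capitals mark matches to 3 searched motifs on either strand, which do not overlap: TTCNNNGAA, bound by STAT factors, TGANTCA, bound by AP-1 factors, and TCACNCCAC, bound by sterol regulatory element-binding proteins.
Gfap, chr11:102897201-102897450, minus strand: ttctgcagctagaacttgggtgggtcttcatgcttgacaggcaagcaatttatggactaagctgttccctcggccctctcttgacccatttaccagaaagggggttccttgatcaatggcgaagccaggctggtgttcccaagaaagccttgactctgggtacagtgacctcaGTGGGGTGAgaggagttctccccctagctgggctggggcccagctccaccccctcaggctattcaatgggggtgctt
Serpina3n, chr12:104406458-104406707, plus strand: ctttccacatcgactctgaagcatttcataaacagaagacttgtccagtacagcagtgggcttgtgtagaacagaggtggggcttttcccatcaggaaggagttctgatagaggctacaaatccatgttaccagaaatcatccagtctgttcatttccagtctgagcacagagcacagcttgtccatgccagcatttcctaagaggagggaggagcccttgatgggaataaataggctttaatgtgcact
The Gfap window lies within the span of the gene given above, since that annotation also holds a transcript that starts further upstream. Neither window held the STAT or the AP-1 motif. The sterol motif matched once, in the Gfap window, starting 77 bases before the start. Of 32851 promoter windows of the same length, 7.02% held the STAT motif, 6.75% the AP-1 motif and 1.05% the sterol motif, and no other member's window held any of the 3. The letters describe these windows only and say nothing of what binds there.

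Nes took the opposite side. It lies at chr3:87971078-87980451 on the plus strand. Its level was 506 and 498 CPM in the repair-high cluster and 435 and 445 in cluster 4, against 221 and 217 in the SGC-high cluster and 213 and 208 in cluster 1. Cluster 3 lay between, at 279 and 277. The SGC-high cluster was lower than the repair-high cluster (log2 fold change -1.24, SE 0.04, adjusted p = 5.0e-73) and cluster 1 lower than cluster 4 (-1.13, SE 0.04, adjusted p = 8.9e-64). The difference did not pass between non-dividing and dividing glia: the test of the difference between both contrasts gave -0.10 (95% interval -0.21 to 0.01, adjusted p = 0.41).

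Vim and S100b varied little across glia. Vim, at chr2:13573927-13582826 on the plus strand, ran from 6630 and 6699 CPM in cluster 1 to 10170 and 10299 in the repair-high cluster. Since its counts were the largest, small differences passed: the SGC-high cluster was lower than the repair-high cluster by a log2 fold change of -0.21 (SE 0.01, adjusted p = 3.0e-31) and cluster 1 lower than cluster 4 by -0.19 (SE 0.01). S100b, at chr10:76253853-76261159 on the plus strand, ran from 74.5 ± 4.6 CPM in cluster 1 to 115 ± 6.8 in the repair-high cluster, with log2 fold changes of -0.22 (SE 0.06, adjusted p = 0.0035) and -0.44 (SE 0.07, adjusted p = 2.5e-07) in the same 2 contrasts. With DESeq2 the S100b difference between the SGC-high and repair-high clusters did not pass (-0.25, adjusted p = 0.091).

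Cd44, whose protein binds hyaluronan at the cell surface, at chr2:102811141-102901665 on the minus strand, did not pass in either contrast, but did in the first at a resolution of 0.3 (0.21) and with the list genes kept (0.16), and passed as lower at the 20% mitochondrial limit (-0.49, adjusted p = 4.4e-06). It had 139 and 142 CPM in the SGC-high cluster and 127 and 131 in the repair-high cluster (log2 fold change 0.08, 95% interval -0.03 to 0.19, adjusted p = 0.29), and 98.0 and 97.3 CPM in cluster 1 against 78.9 and 85.8 in cluster 4 (0.17, 95% interval 0.03 to 0.32, adjusted p = 0.054). Of its listed ligands and ligand-making enzymes, Has2, a hyaluronan synthase, was higher in the SGC-high cluster (1.24, SE 0.16), and Spp1, which encodes osteopontin, was lower (-0.97, SE 0.14). Has1 and Has3 were not tested.

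Over the members, 2 of the 7 tested were higher in the SGC-high than in the repair-high cluster and 4 were lower. Of all 11653 genes tested, 19.8% were higher and 17.7% lower, and the members' median log2 fold change was -0.21 against 0.01 for all genes. Between dividing clusters 1 and 4, 2 members were higher and 3 lower, where 15.9% of genes were higher and 16.2% lower. The clusters were cut from the same cells, and the members, though held out, vary with the genes that were used. The p-values therefore compare each gap with the spread between libraries and do not show that the clusters are separate kinds of cell.

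The choice of cells mattered to these contrasts. At a mitochondrial limit of 20% the SGC-high rule chose another cluster, of 672 cells, where Serpina3n was still higher (3.05) and Gfap did not pass (0.15, adjusted p = 0.74). At 5% no SGC-high cluster was left to compare. The single non-dividing glial cluster, of 621 cells, was led by Tgfbi, Igfbp5 and Atf3, as the repair-high cluster was, and the rule set it in the SGC-high place against a dividing cluster. The values of that contrast (Serpina3n -0.10, Gfap -0.45, Nes 0.42, Lgals3 2.40, S100b 0.27 and Vim 0.48) have the opposite sign but do not compare the same states. Between dividing clusters, Serpina3n and Nes passed at a resolution of 0.3 (3.45 and -1.07) and with the list genes kept (3.65 and -1.11), but not at the 20% limit (-0.13 and -0.07). Gfap did not pass there at a resolution of 0.3 (0.23) and was lower at the 20% limit (-0.78), and S100b and Vim passed in the same direction in none of these 3 settings. The settings also paired other dividing clusters. At the 20% limit a cluster of 618 cells was set against one of 2264, whose mean log2 repair level was 4.40, against 4.99 in cluster 4. The 20% values therefore do not compare the same states. At a resolution of 0.3 and with the list genes kept, a cluster of 394 or 1057 cells stood in place of cluster 1.

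**Figure D2:**
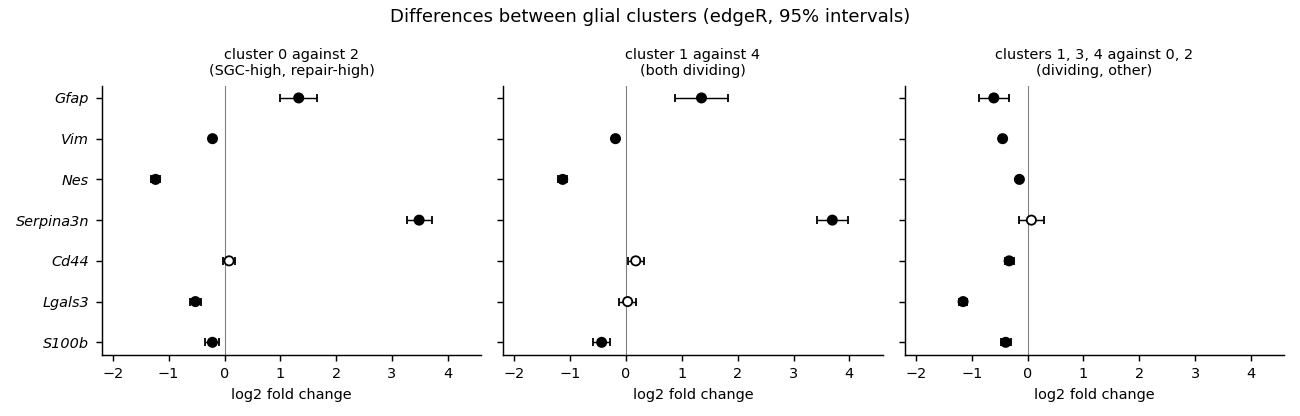
Log2 fold change of the 7 tested members between glial clusters, with 95% intervals from edgeR; filled points passed at an adjusted p of 0.05 and open points did not. Serpina3n and Gfap lay to the right of 0 and Nes to the left in both cluster pairs, and Lgals3 lay furthest left where dividing clusters were set against the others.

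Most members took a lower share of the RNA of dividing glia, which also held more UMIs per cell. Clusters 1, 3 and 4 together against clusters 0 and 2, with equal weight per cluster, gave 0 of 7 members higher and 6 lower, where 28.1% of genes were higher and 27.4% lower. At the 5% mitochondrial limit the rule set a dividing cluster of 322 cells against the mean of a non-dividing and another dividing cluster. There 2 of them passed, Lgals3 (-1.13) and Nes (-0.53), and Vim (0.068) and S100b (0.16) took the opposite sign. Those values do not compare dividing with non-dividing glia. With the main clusters, Lgals3 differed most (-1.16, SE 0.04, adjusted p = 1.2e-69). It was followed by Gfap (-0.60, SE 0.14), Vim (-0.45, SE 0.01), S100b (-0.39, SE 0.05), Cd44 (-0.33, SE 0.04) and Nes (-0.15, SE 0.03). Serpina3n gave 0.07 (95% interval -0.15 to 0.29, adjusted p = 0.63), being low in cluster 4 and high in clusters 1 and 3. When the cells were pooled into 2 groups in place of equal weights, Serpina3n was lower in dividing glia (-0.20, adjusted p = 8.2e-05). The dividing clusters differed among themselves: set against the mean of the remaining clusters, cluster 3, led by replication genes, was higher for Lgals3 (0.33, SE 0.05) and Cd44 (0.39, SE 0.06), while clusters 1 and 4 were lower for both. Gfap passed narrowly in cluster 3 (0.44, adjusted p = 0.046, or 0.057 without the library block). In this test 7 members passed in clusters 0, 3 and 4 and 6 in clusters 1 and 2, where Gfap did not pass, while 56.5%, 54%, 47.7%, 26.2% and 44.7% of all genes passed in clusters 0 to 4. Depth moved with these groups: median UMIs per cell were 3873 to 4169 in cluster 0, 3726.5 to 3980.5 in cluster 2, 4653.5 to 4991 in cluster 3, 6682 to 7280 in cluster 4 and 7263 to 7787 in cluster 1. The part of depth in the CPM differences was not tested.

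The Lgals3 level of the repair-high cluster was carried by few of its cells. The gene lies at chr14:47367751-47386160 on the plus strand. Its level was 274 and 339 CPM in the repair-high cluster against 223 and 219 in the SGC-high cluster (log2 fold change -0.52, SE 0.05, adjusted p = 2.7e-20). After thinning to 2000 UMIs, a mean of 23.1% of repair-high and 28.9% of SGC-high cells held a Lgals3 UMI, and no order is read from these shares. In the repair-high cluster the 5% of cells with the most Lgals3 UMIs held 54.1% of them in A and 64.8% in B, against 30.4% and 30.1% in the SGC-high cluster. Between dividing clusters 1 and 4, Lgals3 was at 95.4 against 72.3 CPM in A and at 88.3 against 98.2 in B, opposite directions, and did not pass (0.03, 95% interval -0.13 to 0.19). The difference between the 2 contrasts passed for Lgals3 (-0.55, SE 0.09, adjusted p = 2.1e-06) and for no other member, where 3.87% of all genes passed. The difference held neither in DESeq2 (-0.58, adjusted p = 0.29, with no adjusted p for Gfap and none of the other 6 members passing) nor when the glia were clustered at a resolution of 0.3 (0.01) or with the list genes kept (0.06).

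**Figure D3:**
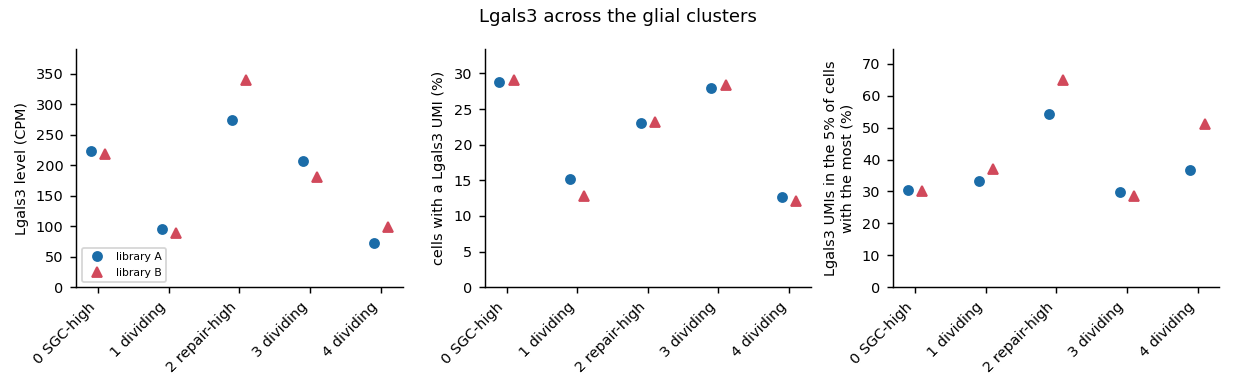
Lgals3 in the 5 glial clusters: level in CPM, share of cells with a UMI after thinning to 2000 UMIs, and share of all Lgals3 UMIs held by the 5% of cells with the most of them, for library A (circles) and B (triangles). The repair-high cluster had the highest level, and the largest share of its Lgals3 UMIs in few cells, in both libraries.

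The cells behind the Lgals3 level of the repair-high cluster were few. With at least 5 Lgals3 UMIs among the thinned 2000, a limit set after the values were seen, 13 of 827 cells in A and 16 of 1011 in B stood out (1.57% and 1.58%), with 9 and 11 more cells at 4 UMIs, just under that limit. In the SGC-high cluster 5 of 1625 and 9 of 1789 cells reached it. Summed over these cells, Lgals3 was at 3761 and 5379 CPM in the repair-high cluster, against 185 and 193 in its other cells. The corresponding other cells of the SGC-high cluster were at 218 and 210.5. The limit was set on Lgals3 itself and took a larger share of the repair-high cluster, so no order is read from the other cells. The following genes were named after their values were seen. Gadd45b, a stress-response gene, was at 799 and 603 CPM in the repair-high cells that reached the limit, against 65.7 and 50.9 in the rest. Cdkn1a, which encodes the cell cycle inhibitor p21, was at 540.5 and 545 against 118 and 115. Ddit3, a factor of the unfolded protein response, was at 236 and 260 against 43.6 and 31.0, and the chaperone gene Cryab at 6283 and 9275 against 1778 and 1673. Hspb1, another chaperone, stood out in library B alone (2179 against 21.2 CPM), with 78.8 against 21.2 in A. These cells were also deeper, with a median of 5755 UMIs in A and 7316.5 in B, against 4021 and 3799 in the rest. The macrophage markers Lyz2, C1qb and Tyrobp held 0 UMIs in these cells in A, and 3, 0 and 2 in B. The glial gene Sox10 was detected in them in both libraries, at 191 and 109 CPM against 224 and 221 in the rest. Being chosen by Lgals3, these cells are a range of values and not a cell type, and no test was made.

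Most glial cells showed few members at a time. After thinning, 9264 of 9266 glia held a Vim UMI. Nes was found in a mean of 39.1% of glia over both libraries. In A and B, 23.1% and 22.7% of glia held Lgals3, 20.8% and 21.9% Cd44, 15.3% and 14.9% S100b, 12.9% and 12.2% Serpina3n and 3.34% and 3.27% Gfap. At the same thinned depth, Gfap was found in 0 of 383 fibroblasts, Serpina3n in 10, S100b in 18, Cd44 in 19, Nes in 54 and Lgals3 in 115. Gfap alone had a fibroblast level (1.09 CPM) near that which carried-over glial RNA would give (1.08), so for the others these shares are not a pure background. A cell held 2 members in 41.2% of glia, 1 in 27.0%, 3 in 23.5%, 4 in 7.10% and 5 in 1.09%. Of 9266 glia, 9 held 6 members and none held 7 or 8. Without Vim, the mean number of members per cell was 1.24 in the SGC-high cluster, 1.19 in the repair-high cluster, 1.20 in cluster 3, 0.998 in cluster 4 and 0.957 in cluster 1. These are shares of cells with a UMI and not of cells that express the gene. Without thinning, 2451 of 9447 glia held Serpina3n and 688 held Gfap.

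Co-detection ratios were taken within glial clusters unless all glia are named, so that differences between clusters did not enter them. The Mantel-Haenszel odds ratio compares how often a cell holds both genes with what their separate shares give, pooled over the 5 clusters, and 1 means no relation. Vim and Lcn2 allowed no usable ratio, which left 15 pairs of 6 members. Of these, 9 were above 1 in both libraries and 2 below 1 in both. No such count was made for pairs of other genes, so these counts are not read as a trait of the members. Gfap with Serpina3n gave 1.57 in A and 1.30 in B. In A 34 cells held both and in B 28. Over all glia, where differences between clusters enter, this is 0.78% and 0.57%, and the product of the shares gave 0.43% and 0.40%. Also over all glia, 23.3% and 17.5% of cells with Gfap held Serpina3n, against 12.58% and 11.99% of those without it (odds ratios 2.11 and 1.56). Serpina3n with S100b gave 1.35 and 1.48, but 1.16 and 0.856 when cells were thinned to 1000 UMIs. Gfap with Lgals3 gave 1.57 and 1.18 (a mean of 0.90 at the 5% mitochondrial limit), Cd44 with Lgals3 1.36 and 1.17, and Serpina3n with Lgals3 1.12 and 1.28. These are weak relations in sparse counts, and cells of a library share depth and free RNA, so no p is given.

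Nes and Serpina3n were found together less often than their shares give. Their ratio was 0.68 in A and 0.77 in B within clusters. Thinned to 1000 UMIs the ratio was 0.929 and 0.958, close to no relation. Over all glia, where differences between clusters enter, 8.93% and 8.78% of cells with Nes held Serpina3n. Of cells without Nes, 15.4% and 14.4% did (odds ratios over all glia 0.54 and 0.57). The other pair below 1 in both libraries was Cd44 with S100b (0.84 and 0.99). The members were also set against state genes. With Fabp7, a fatty acid-binding protein of SGCs, Serpina3n had ratios of 1.33 and 1.34 and Nes of 0.65 and 0.70, while Gfap had 0.92 and 1.18. With Ngfr, the low-affinity neurotrophin receptor of repair Schwann cells, Nes had 1.33 and 1.35 and Gfap 0.62 and 0.63, the last from 10 and 12 cells with both. Lgals3 lay below 1 with Fabp7 (0.80 and 0.81) and near 1 with Ngfr (0.99 and 1.07). Serpina3n with Ngfr was below 1 in both libraries but differed between them (0.85 and 0.36). Since clusters are coarse, cells of 1 cluster can still lie at different points between the SGC-high and repair-high ends, and its part in these ratios was not tested.

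**Figure D4:**
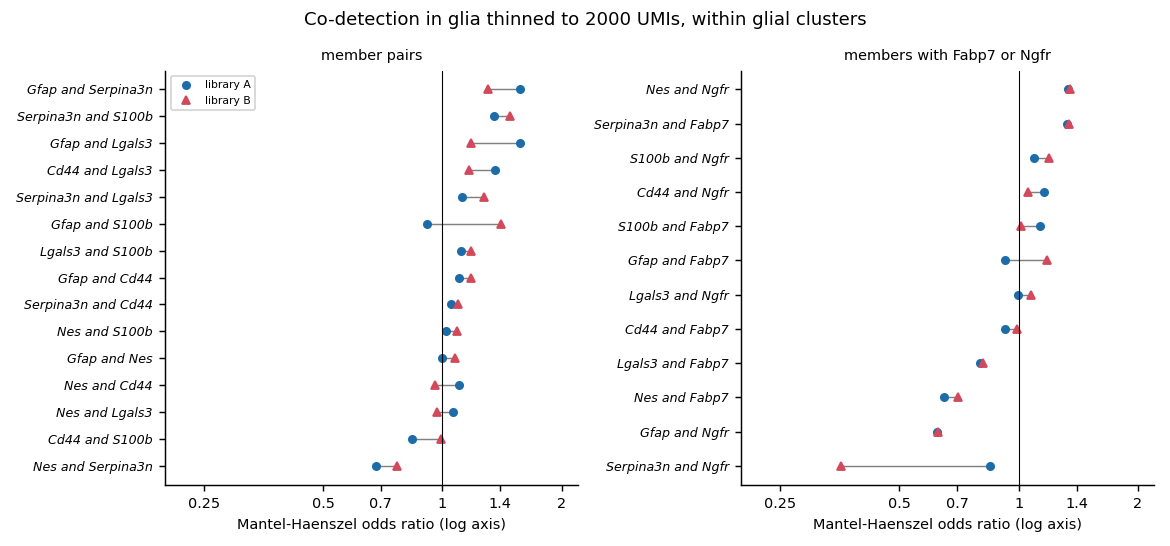
Mantel-Haenszel odds ratio of co-detection within glial clusters on a log axis, for member pairs (left) and for members with Fabp7 or Ngfr (right), library A as circles and B as triangles. Pairs are ordered by the mean of both libraries, whose order at the top differed between libraries, and Nes with Serpina3n lay lowest among the member pairs in both.

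Only the filament genes were higher in glia than in neurons, while against fibroblasts and macrophages other members were higher in glia too. Against neurons, 3 of 7 members were higher in glia and 3 lower, where 42.9% of 13791 genes were higher and 40.9% lower. Nes had 293 and 298 CPM in glia and 15.7 and 18.0 in neurons (log2 fold change 4.10, SE 0.08, adjusted p = 1.8e-26). Gfap had 16.92 and 15.96 against 0.95 and 1.21 (3.90, SE 0.21) and Vim 7954 and 8101 against 926 and 1019 (3.01, SE 0.10). The glial marker genes, summed, were in neurons at 10.1% of their glial level in A and 10.9% in B. If all of that were glial RNA, it would bring 1.7 CPM of Gfap, 31.0 of Nes and 843 of Vim into neurons, against 1.1, 16.9 and 973 measured, so neuronal Gfap and Nes lay below that level and Vim near it.

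Of the 7 tested members, 4 were well above that level in neurons. Cd44 had 352 and 351 CPM in neurons against 117 and 120.1 in glia (log2 fold change -1.60, SE 0.06, adjusted p = 2.6e-19), and Lgals3 388 and 411 against 169 and 179 (-1.23, SE 0.07, adjusted p = 1.7e-15). Serpina3n had 107 and 94.4 against 77.8 and 78.4 (-0.41, SE 0.06, adjusted p = 1.5e-06). That glial level joins unlike clusters: the SGC-high cluster, at 126 and 124 CPM, lay above neurons, and the repair-high cluster, at 12.9 and 9.1, far below. Glial RNA at the level of the glial markers would bring 12.5, 18.3 and 8.2 CPM of these 3 genes. S100b had 91.1 and 84.9 CPM in neurons and 90.9 and 92.9 in glia, where the carried-over level would be 9.7 (0.03, 95% interval -0.11 to 0.16, adjusted p = 0.72). For S100b the direction depended on the scaling: DESeq2's size factors, which moved the median of all genes by -0.18, gave -0.16 (adjusted p = 0.025). Neurons were also far deeper, with a median of 29526.5 UMIs per cell in A and 27416 in B against 4916 and 4539 in glia. At the same 2000 UMIs, Cd44 was found in 42.7% and 39.0% of neurons, Lgals3 in 37.8% and 38.1% and Serpina3n in 23.6% and 16.9%.

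Against fibroblasts, 6 of 7 members were higher in glia and Lgals3 was lower, where 30.9% of genes were higher and 25% lower (4256 and 3441 genes, or 3348 and 4106 with DESeq2's size factors). The differences ran from 1.152 (SE 0.09) for Vim to 3.64 (SE 0.40) for Gfap, whose fibroblast level rested on 2 and 3 UMIs. Lgals3 had 245 and 201 CPM in fibroblasts (-0.60, SE 0.09, adjusted p = 3.1e-06). Against macrophages, 5 members were higher in glia and Lgals3 was lower, where 21.8% of genes were higher and 12.1% lower (3006 and 1675, or 1952 and 2181 with those size factors). Lgals3, a standard marker of activated macrophages, had 3684 and 4399 CPM there (-4.69, SE 0.08, adjusted p = 1.2e-26) and was found in 94.6% and 95.7% of the 37 and 46 macrophages after thinning. Cd44 had 47.5 and 106 CPM in macrophages and did not pass (0.44, 95% interval 0.02 to 0.86, adjusted p = 0.10). Glial markers in macrophages reached 27.2% and 15.3% of their glial level. As means of both libraries, Nes had 57.2 CPM in macrophages, against 62.7 carried over, and S100b 15.9 against 19.5. In library B alone Nes had 47.9 against 45.7. The same reckoning gave 16.6 CPM of Serpina3n and 3.5 of Gfap, where 2.2 and 1.2 were measured, so it was too high for these 2 genes. The source of the macrophage counts was not tested.

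Relatives of the members in their gene families were counted as well. Of the other Serpina3 genes counted, none passed the filter in glia, and their summed level there was 0.3 CPM, so the glial signal of this gene cluster was counted under Serpina3n. Reads that fit several of these near-identical genes equally may have gone uncounted. Among S100 genes, S100a6 (2552 CPM in glia), S100a10 (862), S100a4 (719), S100a11 (550), S100a16 (410) and S100a13 (141) exceeded S100b. Between the SGC-high and repair-high clusters, 4 of the 8 tested S100 relatives were higher and 4 lower, S100a3 at 1.70 (SE 0.23) and S100a4 at -0.60 (SE 0.03) the furthest. In this contrast 19.8% of all genes tested were higher and 17.7% lower. Lgals1 was the only other galectin above 100 CPM in glia (2557), and it was lower in the SGC-high cluster (-0.76, SE 0.02, adjusted p = 3.9e-88). Of 8 other intermediate filament genes tested, the nuclear lamin genes Lmna (-0.61, SE 0.03) and Lmnb2 (-0.59, SE 0.22) were lower there and none was higher.

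Lists of reactive astrocyte genes, which were defined in the brain and spinal cord, gave mixed counts in these glia. Between the SGC-high and repair-high clusters, 19.8% of all genes tested were higher and 17.7% lower. Of 6 tested among 8 pan-reactive genes that are not members, 3 were higher in the SGC-high cluster and 3 lower, with a median of 0.64 against 0.01 for all genes. The higher ones were S1pr3 (2.07, SE 0.12), a sphingosine-phosphate receptor, Osmr (1.69, SE 0.22), the oncostatin M receptor, and Cp (1.57, SE 0.20), which encodes ceruloplasmin. Cxcl10 (-1.18, SE 0.08), a chemokine, Hspb1 (-0.93, SE 0.13) and Timp1 (-0.28, SE 0.04), a metalloprotease inhibitor, were lower. The Hspb1 direction rested on few cells of library B. There the 16 repair-high cells with at least 5 thinned Lgals3 UMIs held 260 Hspb1 UMIs, against 86 in the other 995. Without such cells Hspb1 was at 21.2 CPM in the repair-high cluster in both libraries, below the 32.7 and 25.7 of the SGC-high cluster. Of 8 tested A1 genes, named for a neurotoxic astrocyte state, 5 were higher and 1 lower (median 0.46), led by the complement inhibitor Serping1 (3.28, SE 0.22), Fbln5 (3.15, SE 0.05) and Ggta1 (1.63, SE 0.15). Of 9 tested A2 genes, 3 were higher and 4 lower (median -0.19), with Cd14 (3.34, SE 0.30) and the cytokine gene Clcf1 (-3.15, SE 0.28) at the ends.

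Genes of the STAT3 pathway, which carries signals of interleukin 6-type cytokines and is known to act on Gfap in astrocytes, were also counted. Of 9 tested, 6 were higher in the SGC-high cluster and 2 lower (median 0.43), where 19.8% of all genes were higher and 17.7% lower. Osmr is on this list and on the pan-reactive list. Whether the pathway acts on Gfap in these cells was not tested. The receptor genes Lifr (1.77, SE 0.12), Cntfr (1.72, SE 0.22) and Osmr and the feedback inhibitor Socs3 (1.23, SE 0.09) were higher, while Il6ra (-1.26, SE 0.13) and Jak1 (-0.29, SE 0.05) were lower. In dividing cluster 1 against cluster 4 the count was again 6 higher and 2 lower, where 15.9% of all genes were higher and 16.2% lower. Of the receptors for lipocalin 2, Lrp2 (3.56, SE 0.30) and Slc22a17 (1.30, SE 0.11) were both higher in the SGC-high cluster, where their mean levels were 17.0 and 59.0 CPM.

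Over the 16 sums of 5 glial clusters and 3 classes in 2 libraries, the 3 genes most like Serpina3n among 9229 genes were Hmgcs1 (Pearson r = 0.98), Fdft1 (0.97) and Fdps (0.96), which encode enzymes of sterol synthesis. These correlations are across groups that share 2 libraries and are given without a p. Hmgcs1 had 364 ± 3.2 CPM in the SGC-high cluster and 280.3 ± 21 and 306 ± 2.3 in clusters 1 and 3, against 118 ± 0.02 in the repair-high cluster and 110.2 ± 1.4 in cluster 4. It was also high in neurons (263 ± 7.5) and low in macrophages (65.0 ± 12), as Serpina3n was. Over the 10 glial sums alone r was 0.99 for Hmgcs1, 0.97 for Fdft1 and 0.96 for Fdps. In single cells, the odds ratio of Serpina3n with Hmgcs1 within clusters was 1.30 in A and 1.22 in B, and that with Fdft1 and Fdps lay between 1.07 and 1.19. Only 24 genes reached an r of 0.9 with Serpina3n, against 195 for Gfap and 293 for Vim.

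**Figure D5:**
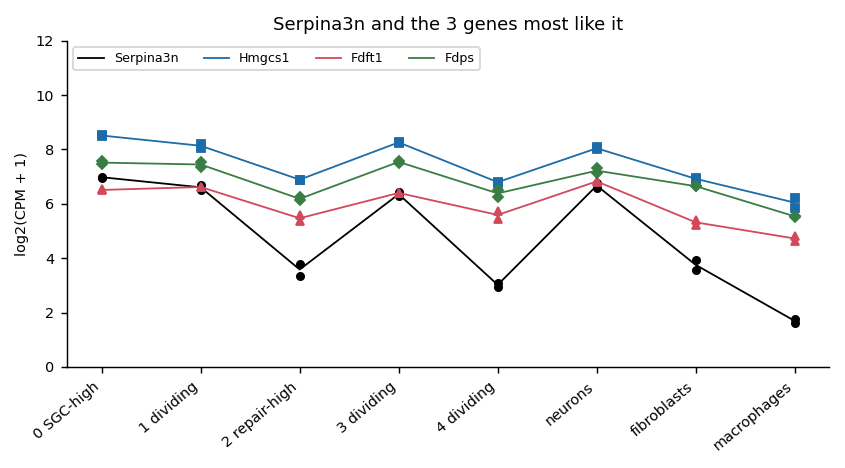
Mean level (lines) and both libraries (points) of Serpina3n, Hmgcs1, Fdft1 and Fdps as log2(CPM + 1) in the 5 glial clusters and 3 other classes. All 4 genes were lower in clusters 2 and 4, fibroblasts and macrophages than in clusters 0, 1 and 3 and neurons.

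The other members had other companions by the same measure. Gfap was most like Rab38, Ahr and Daam2 (r = 0.97 each), Vim like Pxn, Stxbp3 and Arpc1b (0.98 to 0.99), and Nes like Eif3l (0.99), Utp11 (0.99) and Lmna, another intermediate filament gene (0.98). Cd44 was most like Miga1, Eps15 and Trappc2 (0.96 to 0.98), Lgals3 like Klc4, Ntpcr and Abcg1 (0.97 to 0.99) and S100b like Fbxl15, Tbcel and Taok1 (0.98 to 0.99). The genes nearest to Lcn2, Agt, Lgi2 and Pdia5 (0.92 to 0.93), rest on the few Lcn2 UMIs of neurons and fibroblasts. No member was among the 3 nearest genes of another.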

How the data were processed

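Per the file headers and the methods, the authors deposited unnormalized UMI counts, a matrix of genes by cells for each library, made with Cell Ranger (3.0.2 in the submitters' notes, 3.1.0 in the matrix headers) on mm10 from 10x 3′ libraries, with their later steps in Seurat 3. Here 5066 of 5175 cells in A and 5664 of 5773 in B were kept (median 5270 and 4825.5 UMIs). The libraries shared 8 cell barcodes. Scrublet called 2 and 3 doublets, so it had not worked, and the 5% of cells with the highest scores were removed only as an alternative.

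Cells were clustered with Seurat 5.3.0 (2000 variable genes, 20 principal components, resolution 0.18 in glia) without the members. Counts were summed per library and cluster or class and tested with edgeR 4.0.16 (quasi-likelihood test, TMM, filterByExpr, library as block, Benjamini-Hochberg adjusted p under 0.05, R 4.3.3). The block pairs sums of the same library, since all cells of a library were handled together. Alternatives were DESeq2 1.42.0 or its size factors, no low-count filter, no block, other mitochondrial limits and resolutions, list genes kept, and single libraries. Tests were tried on simulated counts with a spread fixed in advance, which need not match that of these data. Among the 11653 genes of the glial fit, 92% of genes changed 2-fold and 66% of those changed 1.5-fold were recovered. In the fit of classes these shares were 84% and 46%.

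For shares and co-detection, cells were thinned to 2000 UMIs, which left out 181 of 9447 glia, 42 neurons, 6 fibroblasts and no macrophage. Limits for a count of 0 use 3 counts and cover counting error only. CPM summed over a group was used with a pseudocount of 1 for likeness, over genes reaching 20 CPM. The members and lists were chosen with earlier results of these data known. The genes named were all members, the 3 listed genes furthest from 0 in each direction that passed, family members over 100 CPM in glia and the 3 genes nearest to each member; any other gene was chosen after its values were seen.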

Additional observations from a re-analysis of the deposited data

Results flagged for a closer look

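The Lgals3 difference between the SGC-high and repair-high clusters was set against the Lgals3 difference between dividing clusters 1 and 4, and the difference of the differences passed its own test (-0.55, SE 0.09, adjusted p = 2.1e-06, edgeR). The value was -0.69 in library A and -0.48 in library B taken alone, the same sign in both. It was chosen after the levels were seen. With DESeq2, with the list genes kept and at a resolution of 0.3 it did not pass. In the last 2 settings another dividing cluster stood in place of cluster 1.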

How the results depend on the processing

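Leaving out the library block changed 1 member call, Gfap in cluster 3 against the mean of the remaining clusters (0.44, adjusted p = 0.057), with the counts of members passed kept at 6 (SGC-high against repair-high), 6 (dividing against other), 6, 7 and 6 (neurons, fibroblasts, macrophages). With 1 library left, values carry no test. Of the counts and shares that answer a comparison, 74 stayed within their limits over all alternatives and 14 did not. At the 5% mitochondrial limit 2 members passed where a dividing cluster was set against a non-dividing and another dividing cluster. In the cluster tests 4 passed, 5 pairs were above 1 and the median share was 17.2%. At that limit the rule put a cluster led by genes of the repair-high cluster in the SGC-high place. This contrast gave Gfap -0.45, Lgals3 2.40, Nes 0.42, S100b 0.27, Serpina3n -0.10 and Vim 0.48. The contrast of the dividing cluster gave S100b 0.16 and Vim 0.068. The odds ratios were 1.30 (Cd44 with S100b), 0.902 (Gfap with Lgals3), 0.980 (Nes with S100b) and 0.729 (Serpina3n with Cd44). At the 20% limit Cd44 was -0.49 in the SGC-high contrast, S100b -0.47 against neurons, and Gfap -0.78, Lgals3 -0.24, S100b 0.48, Serpina3n -0.13 and Vim 0.33 between dividing clusters. At that limit the rule paired other dividing clusters, so these last values do not compare the same states. The difference between the pairs passed there for 7 members, with Gfap 0.93, S100b -0.52 and Serpina3n 3.18. At a resolution of 0.3, 3 members passed between dividing clusters (Lgals3 -0.35, Vim 0.038) and 3 for the difference (Gfap 1.31, Lgals3 0.014). With list genes kept, dividing clusters gave Lgals3 -0.34, S100b 0.045 and Vim 0.12, the difference passed for 2 members (Lgals3 0.064, S100b -0.29), and S100b was -0.25 against neurons. DESeq2 passed 0 members for the difference (2 had an unadjusted p under 0.05, Lgals3 and Vim), and its size factors gave S100b -0.16 against neurons. Pooling cells gave Serpina3n -0.20 in dividing glia. Thinning to 1000 UMIs left 5 pairs above 1 (Lgals3 with S100b 0.958, Nes with S100b 0.880) and no thinning 14 (Cd44 with S100b 1.19). The median share was 9.91%, 31.2% and 36.5% at 1000, 4000 and all UMIs. At a resolution of 0.1 the dividing pair could not be formed. Except where fewer cells or other clusters entered by construction, the cause was not tested.

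Over all genes, DESeq2 called 2458 against 4377 genes in the SGC-high contrast, 1951 against 3739 between dividing clusters, 107 against 451 for the difference, and 3986, 3809 and 1593 against 6582, 6295 and 3058 in clusters 0, 1 and 3. For the difference, 3522 genes passed at the 20% limit, 2738 with list genes kept and 1740 at a resolution of 0.3. At the 5% limit 1884 genes passed for the dividing cluster set against clusters that included another dividing one. In the main contrast of dividing glia 6465 passed. DESeq2's size factors moved the median of all genes by -0.18, -0.15 and -0.26 against neurons, fibroblasts and macrophages. Shares of cells rose with depth for all members but Vim and Lcn2.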
